A study of Homo sapiens with 9 samples.

Results

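The amino acid transporter genes of 7 solute carrier (SLC) families were described in RNA-sequencing libraries of 3-dimensional cultures labelled MDA-MB-231, a human breast cancer line that lacks the hormone receptors and ERBB2 amplification. A gene was taken as a member when its symbol placed it in family SLC1, SLC3, SLC6, SLC7, SLC36, SLC38 or SLC43 and its name did not call it a pseudogene. This gave 44 of the 17911 genes counted: 13 of SLC6, 11 of SLC7, 9 of SLC38, 5 of SLC1, 3 of SLC43, 2 of SLC36 and 1 of SLC3. The choice used names only and no measured value, though earlier results of these data were known when it was made. The study has 9 samples, 3 with capsule in the title and 6 titled as liquid overlay spheroids, of which 3 are called small and 3 large. Other label text names liquid overlay for every sample, capsules included. Every label gives the wild-type line with no transgene, RPMI medium with 10% fetal bovine serum, 5% Matrigel (an extracellular matrix gel), 96 h of culture before RNA was taken, and trastuzumab, which binds the receptor ERBB2. All groups share these, so no untreated culture is compared here, and the labels do not say what the capsule is made of. Nothing says that replicates came from separate cultures, so the p-values measure the spread between these libraries, which may be technical.

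The 9 columns of counts carry 3 kinds of name. The 3 capsule columns each match 1 capsule sample. Of the 6 spheroid columns, 3 are named L.O. and 3 are named Sph.WT, and neither name says small or large, so the sizes were not compared. The 6 columns were used together as the spheroid group and also as 2 sets of 3. The names of the capsule and L.O. columns also end alike, and those of the Sph.WT columns differently. A difference in handling between those sets, if there was one, cannot be told apart from the sets themselves.

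Amino acids cross the membrane of an animal cell through carriers that either swap one amino acid for another or draw on the gradient of sodium ions or protons. A well known arrangement in tumour cells has sodium-coupled SLC38 and SLC1 carriers bring in glutamine, which the exchanger formed by SLC3A2 and SLC7A5 then trades for leucine and other large neutral amino acids. SLC7A11, which also pairs with SLC3A2, takes up cystine for glutathione in exchange for glutamate. The transcription factor ATF4 is known to raise many of these genes when amino acids run short. Several SLC6 members carry neurotransmitters, taurine or creatine instead, and SLC43A3 is known for carrying purine nucleobases, so membership of the families is wider than amino acid uptake.

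The label of the cells was checked first, because the sets stood apart. Library totals were 13212665 to 13735221 counts in the capsule columns, 15525725 to 15988167 in the L.O. columns and 16605098 to 33263076 in the Sph.WT columns. Levels are given as scaled CPM, counts per 1000000 after scaling each library by its TMM factor, a weighted trimmed mean of ratios between libraries. A list of 25 genes known to be high in MDA-MB-231 summed to 1419 to 1500 scaled CPM in the capsule libraries, 1562 to 1649 in the L.O. libraries and 14472 to 16437 in the Sph.WT libraries. Of the 25, 14 were at 5 scaled CPM or more in every capsule library, 15 in every L.O. library and 25 in every Sph.WT library. None was at 0 in a whole set, and 5 were under 1 in every capsule library. CD44, a surface marker of the line, had 2.49, 1.9 and 1.96 scaled CPM in the capsule libraries, 4.98, 5.24 and 4.68 in the L.O. libraries and 955, 1080 and 1014 in the Sph.WT libraries. CDKN2A, which is deleted in MDA-MB-231, had 537, 526 and 450 scaled CPM in the capsule libraries, 415, 430 and 603 in the L.O. libraries and 1.02, 0.773 and 0.779 in the Sph.WT libraries. The 8 measured genes of a list typical of HEK293, an embryonic kidney line, summed to 2311 to 2525 scaled CPM in the capsule libraries, 2045 to 2165 in the L.O. libraries and 64.9 to 74.9 in the Sph.WT libraries. Summed levels of 5 epithelial markers were 193 to 202 scaled CPM in the capsule libraries, 249 to 277 in the L.O. libraries and 1318 to 1423 in the Sph.WT libraries, and those of 5 fibroblast markers 40.8 to 45.5, 77.9 to 88.1 and 196 to 242 in the same order of sets. The 3 immune markers summed to 8.12 to 10.4, 23.7 to 26 and 154 to 175 scaled CPM, and the 3 endothelial markers to at most 12.6 in any library. The libraries labelled capsule and L.O. therefore went against the MDA-MB-231 label and the Sph.WT libraries did not. Below, capsule, L.O. and Sph.WT mean the libraries so labelled. The part of these marker differences in the results was not tested. Any comparison with the Sph.WT libraries carries them in full, and the spread within the pooled spheroid group does too. In bulk RNA, fewer cells of a type and less RNA per cell cannot be told apart.

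The transporters were summed first to show how much of each library they held. The 44 genes together had 2983 to 3050 scaled CPM in the capsule libraries, 2049 to 2063 in the L.O. libraries and 3014 to 3327 in the Sph.WT libraries. The capsule sums lay above those of every L.O. library and overlapped those of the Sph.WT libraries. In each of the 3 sets, 24 members were at 10 scaled CPM or more in every library. At 100 or more there were 8 members in the capsule set, 8 in the L.O. set and 9 in the Sph.WT set. SLC7A3 had no count in any Sph.WT library, where 3 counts, the limit that a count of 0 allows, equal 0.11 to 0.213 scaled CPM per library. The plot of members by library shows these levels.

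**Figure D1:**
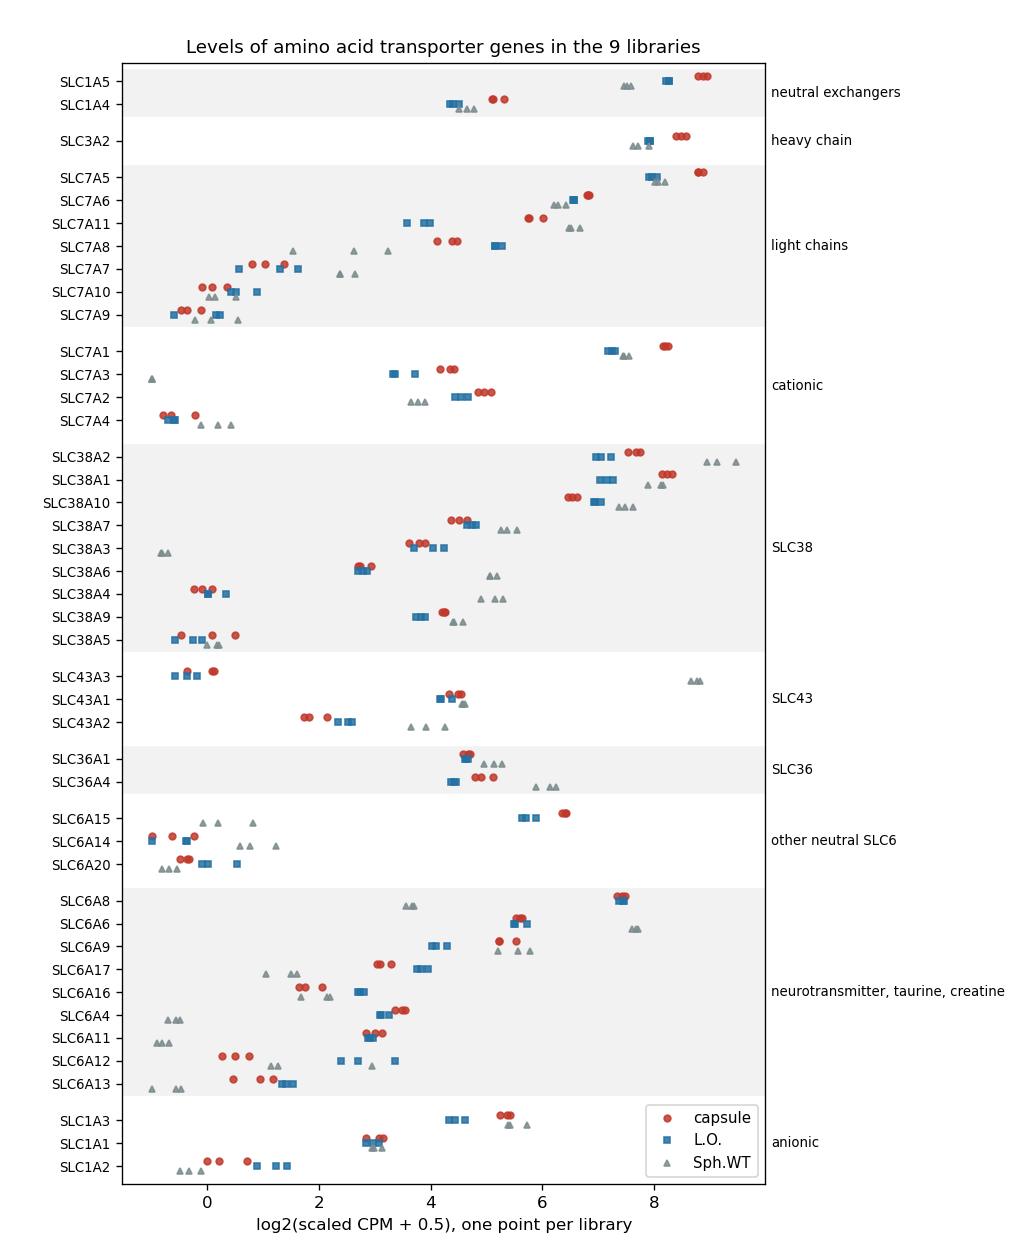
Each point is 1 library and gives log2(scaled CPM + 0.5) of 1 of the genes, with capsule, L.O. and Sph.WT libraries as circles, squares and triangles and genes grouped by role. The capsule circles of SLC7A5, SLC3A2, SLC7A1 and SLC1A4 lie to the right of all 6 spheroid points, and the Sph.WT triangles of SLC43A3, SLC38A4, SLC6A15 and SLC38A3 lie far from the other 6 libraries.

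Levels can be compared between genes only per kilobase of exon. On that scale SLC1A5, the sodium-dependent exchanger of glutamine and other neutral amino acids, ranked 1 in the capsule and L.O. libraries and 4 in the Sph.WT libraries, at means of 141, 91.3 and 55.1 scaled CPM per kb in that order of sets. SLC7A5 followed at rank 2, 2 and 3, with 95.2, 53 and 57.6 scaled CPM per kb. Its heavy chain SLC3A2 had 69.4, 46.8 and 41.7 scaled CPM per kb. The order at the top differed in the Sph.WT libraries, where SLC43A3 ranked 1 at 95.4 scaled CPM per kb, against rank 40 in the capsule libraries at 0.106 and rank 42 in the L.O. libraries at 0.0609. SLC38A2, a sodium-coupled glutamine and alanine carrier, ranked 2 in the Sph.WT libraries at 89.1 scaled CPM per kb, against 6 in the capsule libraries at 30.6 and 5 in the L.O. libraries at 20.6.

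Summed by role, the neutral amino acid exchangers SLC1A4 and SLC1A5 held 26.5% ± 0.915 of the transporter level per kb in the capsule libraries, 25.1% ± 0.42 in the L.O. libraries and 11.1% ± 0.635 in the Sph.WT libraries (SD, n = 3 each). The SLC38 carriers held 15.1% ± 1.09, 16.5% ± 0.41 and 30.6% ± 2.71 in the same order of sets. The SLC43 family held 1.18% ± 0.0783 in the capsule libraries, 1.54% ± 0.0989 in the L.O. libraries and 19.5% ± 0.926 in the Sph.WT libraries, most of it SLC43A3 in the Sph.WT libraries. Carriers of cationic amino acids held 9.25% ± 0.304 in the capsule libraries, above 7.29% ± 0.364 in the L.O. libraries and 4.76% ± 0.0879 in the Sph.WT libraries.

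**Figure D2:**
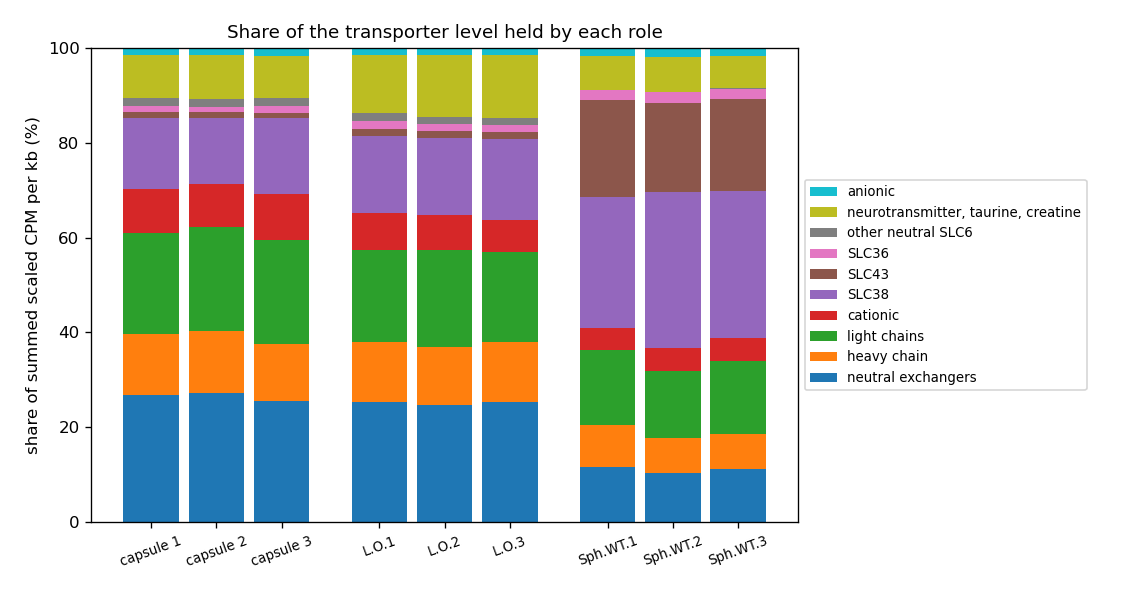
Stacked bars give, for each of the 9 libraries, the percent of the members' summed scaled CPM per kb held by each of 10 roles. The SLC43 share fills 18.6 to 20.5% of the Sph.WT bars, against 1.09 to 1.24% of the capsule bars and 1.46 to 1.65% of the L.O. bars.

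The design's main comparison set the capsule libraries against all 6 spheroid libraries. Higher levels in the capsule libraries were called for 4 members, the exchanger pair SLC3A2 and SLC7A5, the arginine and lysine carrier SLC7A1, and SLC1A4, an exchanger of alanine, serine and cysteine. No member was called lower. Calls are those of edgeR's quasi-likelihood test with Benjamini-Hochberg adjustment over all genes, at an adjusted p under 0.05. SLC7A5 had 442, 470 and 444 scaled CPM in the capsule libraries, against 249, 266 and 240 in the L.O. libraries and 292, 268 and 260 in the Sph.WT libraries. The capsule values lay above all 6 others, and the log2 fold change over the 6 was 0.78 ± 0.099 (SE), with an adjusted p of 0.014 by edgeR. SLC3A2 had 360, 382 and 337 scaled CPM in the capsule libraries, against 244, 239 and 244 in the L.O. libraries and 241, 209 and 197 in the Sph.WT libraries, a log2 fold change of 0.65 ± 0.11 (edgeR adjusted p = 0.0246). SLC7A1 had 292, 285 and 305 scaled CPM in the capsule libraries, against 152, 157 and 145 in the L.O. libraries and 176, 187 and 175 in the Sph.WT libraries. That was a log2 fold change of 0.83 ± 0.11, with an edgeR adjusted p of 0.014. SLC1A4 had 34, 39.3 and 34.4 scaled CPM in the capsule libraries, against 20.5, 19.8 and 22.4 in the L.O. libraries and 27, 22.3 and 24.6 in the Sph.WT libraries. Its log2 fold change was 0.66 ± 0.13 (edgeR adjusted p = 0.0376). For all 4 genes the capsule and spheroid values did not overlap.

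Of the 44 members, 41 passed the filter on low counts and were tested. SLC7A4, SLC6A20 and SLC38A5 did not pass. The 4 calls are 9.76% of the members tested, against 2.3% of all genes called higher, and 1.47% of all genes were called lower. At an unadjusted p under 0.05 there were 7 members higher and 6 lower, against 1802 higher and 3127 lower of the 16985 genes tested. No member was called at 2-fold or more, meaning an adjusted p under 0.05 with a log2 fold change of at least 1, in either direction, where 0.241% of all genes were called higher and 0.801% lower. DESeq2 called 6 members higher and 6 lower, 4 of the lower ones at 2-fold, against 1216 genes higher and 2809 lower of the 16985 tested. By limma-voom 4 members were higher and none lower, against 399 genes higher and 153 lower. The median log2 fold change was 0.06 over the members tested and -0.06 over all genes. With no scaling beyond the library total the split was 3 members higher and 1 lower, against 99 genes higher and 260 lower. The values of 14 of the 41 members did not overlap between the groups, against 26.6% of all genes.

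These calls depended on every capsule library. Without capsule replicate 1, 2 or 3 no gene in the table was called, and the adjusted p of the 4 members was 0.0958 to 0.194. The call of SLC1A4 was also lost without any 1 of the 6 spheroid libraries, at adjusted p values from 0.055 to 0.0907, and that of SLC3A2 without Sph.WT.1, at 0.0514. SLC3A2 also lost its call with no scaling beyond the library total (log2 fold change 0.7, edgeR adjusted p = 0.112). The common coefficient of variation was 66% in this fit, in which the L.O. and Sph.WT libraries share a group, against 7.33% with the L.O. libraries alone and 7.32% with the Sph.WT libraries alone. SLC1A5 had 470, 492 and 442 scaled CPM in the capsule libraries, against 308, 298 and 307 in the L.O. libraries and 193, 183 and 176 in the Sph.WT libraries. It did not overlap between groups and did not pass, with a log2 fold change of 0.94 ± 0.23 and an adjusted p of 0.0613 by edgeR.

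The sequences around the start sites of the 4 genes are shown because these were the members called over all 6 spheroid libraries. Other members, SLC1A5 among them, were also called higher over each spheroid set alone and are not printed. ATF4, NFE2L2 and MYC, which are measured below, are known to bind short motifs near such sites. Each window runs from 250 bases before to 50 bases after a RefSeq start on GRCh38.p14 and is printed 5′ to 3′ on the gene's strand. Capitals mark matches, on either strand, to TGATGNAA (a core of amino acid response elements), TGACNNNGC (a core of antioxidant response elements) and CACGTG (an E-box). The windows are SLC1A4 at chr2:64989149-64989448 on the plus strand, SLC3A2 at chr11:62881449-62881748 on the plus strand, SLC7A1 at chr13:29595639-29595938 on the minus strand and SLC7A5 at chr16:87869458-87869757 on the minus strand.
SLC1A4: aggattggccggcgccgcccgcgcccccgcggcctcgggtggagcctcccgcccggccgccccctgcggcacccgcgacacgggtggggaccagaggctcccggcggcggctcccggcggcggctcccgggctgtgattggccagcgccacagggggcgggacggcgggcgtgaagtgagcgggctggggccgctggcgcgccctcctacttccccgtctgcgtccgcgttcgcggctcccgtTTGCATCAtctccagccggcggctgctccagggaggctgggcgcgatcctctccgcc
SLC3A2: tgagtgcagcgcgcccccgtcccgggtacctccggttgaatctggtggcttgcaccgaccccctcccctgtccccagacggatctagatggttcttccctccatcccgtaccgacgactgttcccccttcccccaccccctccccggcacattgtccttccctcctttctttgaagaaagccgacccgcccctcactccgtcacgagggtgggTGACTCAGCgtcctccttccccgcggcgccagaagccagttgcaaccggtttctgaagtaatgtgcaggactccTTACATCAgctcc
SLC7A1: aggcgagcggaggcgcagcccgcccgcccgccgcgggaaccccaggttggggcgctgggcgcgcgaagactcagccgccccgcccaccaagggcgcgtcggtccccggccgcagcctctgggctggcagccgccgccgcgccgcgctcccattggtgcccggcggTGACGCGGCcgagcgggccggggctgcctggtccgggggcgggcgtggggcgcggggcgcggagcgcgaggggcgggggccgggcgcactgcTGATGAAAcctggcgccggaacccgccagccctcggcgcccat
SLC7A5: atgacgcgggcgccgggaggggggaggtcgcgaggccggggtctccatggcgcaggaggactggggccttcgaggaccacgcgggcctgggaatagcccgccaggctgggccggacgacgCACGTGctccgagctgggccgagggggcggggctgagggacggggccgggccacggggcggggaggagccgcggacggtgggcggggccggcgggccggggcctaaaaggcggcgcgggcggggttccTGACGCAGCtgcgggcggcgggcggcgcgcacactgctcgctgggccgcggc
SLC1A4 holds 1 match, to the amino acid response core. SLC3A2 and SLC7A1 each hold 1 match to that core and 1 to the antioxidant core. SLC7A5 holds 1 match to the antioxidant core and 1 E-box. Other listed starts of SLC1A4 (1) and SLC3A2 (2) hold no match.
The amino acid response core is found in 3.62% of 35116 windows of this length, the antioxidant core in 13.3% and the E-box in 7.26%. The member counts cover RefSeq windows of 33 of the 44 members, 54 windows in all. Windows of the other members were not searched, and their absence here does not mean that they have no RefSeq start. Of these 54 windows, 6 hold the amino acid response core, 7 the antioxidant core and 9 the E-box. The motifs do not overlap one another in the windows shown. A match describes the letters and is not evidence of binding.

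Against the L.O. libraries alone the capsule libraries differed in more members, and here both sets went against the MDA-MB-231 label. The 2 sets still differed in markers. Of 22 MDA-MB-231 genes tested, 2 were higher in the capsule libraries and 11 lower, against 24.7% and 25.4% of all genes. At 2-fold or more 6 of the 22 were lower, against 5.54% of all genes. The part of this marker difference in the member results was not tested. Higher levels were called for 17 of 37 members tested and lower levels for 8. That is 45.9% of the members tested higher, against 24.7% of all genes, and 21.6% lower, against 25.4% of all genes. At 2-fold or more, 3 members were higher (0.792% of all genes) and 3 lower (5.54% of all genes). The median log2 fold change was 0.22 over the members and -0.01 over all genes. With no scaling beyond the library total, which moved the median of all genes to -0.16, 15 members were higher and 12 lower. Between these libraries 27 of the 37 did not overlap, against 57.1% of all genes. The capsule libraries also enter the comparisons with all spheroids and with the Sph.WT libraries, so the 3 comparisons are not independent.

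Among exchangers and their subunits, the capsule libraries were higher than the L.O. libraries for SLC1A5, SLC1A4, SLC3A2, SLC7A5, SLC7A6 and SLC7A11 and lower for SLC7A8. SLC7A11, the cystine importer, had 54.1, 52.9 and 64.2 scaled CPM in the capsule libraries, against 15.4, 14.2 and 11.4 in the L.O. libraries. The sets did not overlap, and the log2 fold change was 2.05 ± 0.11 (edgeR adjusted p = 7.23e-11). Over the L.O. libraries SLC1A5 had a log2 fold change of 0.62 ± 0.069 (adjusted p = 7.02e-07), SLC7A5 of 0.84 ± 0.069 (adjusted p = 2.48e-08) and SLC3A2 of 0.57 ± 0.069 (adjusted p = 2.20e-06). SLC7A6, which swaps cationic for neutral amino acids, had 111, 114 and 112 scaled CPM in the capsule libraries, against 94.1, 93.4 and 94.2 in the L.O. libraries, a log2 fold change of 0.25 ± 0.067 that lost its call with no scaling (0.11, adjusted p = 0.198). SLC7A8, a carrier of large and small neutral amino acids and likewise a partner of SLC3A2, had 16.9, 21.8 and 20.4 scaled CPM in the capsule libraries, against 38.3, 35.3 and 35 in the L.O. libraries. It fell by 0.88 ± 0.099 on the log2 scale (adjusted p = 8.56e-07). SLC7A7 and SLC7A10 were tested and not called, and SLC7A9 was not tested. The ratio of SLC7A5 to SLC7A11, both per kb, was 16.2 ± 2.02 in the capsule libraries, 37.8 ± 4.92 in the L.O. libraries and 5.94 ± 0.773 in the Sph.WT libraries (SD, n = 3 each), so the balance between the light chains of SLC3A2 differed by set.

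All 3 cationic carriers tested were higher in the capsule than in the L.O. libraries, as were 24.7% of all genes. SLC7A1 had a log2 fold change of 0.95 ± 0.068 (adjusted p = 4.72e-09). SLC7A3 had 19.9, 21 and 17.4 scaled CPM in the capsule libraries, against 12.7, 9.51 and 9.76 in the L.O. libraries, a log2 fold change of 0.87 ± 0.12 (adjusted p = 1.31e-05). SLC7A2 had 28.3, 30.6 and 33.5 scaled CPM in the capsule libraries, against 25.1, 22.7 and 21.1 in the L.O. libraries, a log2 fold change of 0.42 ± 0.097 (adjusted p = 0.00131). The sets did not overlap for any of the 3, nor for 57.1% of all genes.

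In the SLC38 family 3 of 7 members tested were higher and 1 lower, beside 24.7% and 25.4% of all genes. SLC38A1, a sodium-coupled glutamine carrier, had 300, 282 and 320 scaled CPM in the capsule libraries, against 153, 142 and 130 in the L.O. libraries. The log2 fold change was 1.08 ± 0.076 (adjusted p = 3.37e-09). SLC38A2, its close relative, had 205, 185 and 216 scaled CPM in the capsule libraries, against 133, 125 and 150 in the L.O. libraries, a log2 fold change of 0.57 ± 0.08 (adjusted p = 1.12e-05). SLC38A9, the lysosomal arginine sensor that acts on mTORC1, had 18.7, 17.9 and 18.5 scaled CPM in the capsule libraries, against 14.5, 13.7 and 12.9 in the L.O. libraries, a log2 fold change of 0.42 ± 0.10 (adjusted p = 0.00224). SLC38A10 was the member that fell, by 0.46 ± 0.073 on the log2 scale (adjusted p = 4.29e-05), with 87.1, 97.7 and 91.7 scaled CPM in the capsule libraries, against 123, 122 and 133 in the L.O. libraries. SLC38A3, SLC38A6 and SLC38A7 were tested and not called.

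Of the remaining members, SLC6A15, a neutral amino acid carrier best known from neurons, had 81.3, 84.4 and 85.9 scaled CPM in the capsule libraries, against 58.4, 51.7 and 49.2 in the L.O. libraries. That was a log2 fold change of 0.66 ± 0.078 (adjusted p = 1.59e-06). SLC6A9, the glycine carrier, had 36.7, 45.6 and 36.7 scaled CPM in the capsule libraries, against 15.8, 16.7 and 19.2 in the L.O. libraries, a log2 fold change of 1.20 ± 0.11 (adjusted p = 5.08e-08). SLC1A3, a glutamate and aspartate carrier, had 37.6, 42.2 and 41 scaled CPM in the capsule libraries, against 23.9, 21.2 and 19.7 in the L.O. libraries, a log2 fold change of 0.90 ± 0.093 (adjusted p = 3.25e-07). SLC36A4, known for high affinity to proline and tryptophan, was also higher, by 0.55 ± 0.099 on the log2 scale. SLC6A4, the serotonin carrier, was called at 0.32 ± 0.12 but lost the call without capsule replicate 2 or 3, or without L.O.1 or L.O.3 (adjusted p 0.0654 to 0.113). Its call was also lost under DESeq2 (adjusted p = 0.0778) and in edgeR with no scaling (adjusted p = 0.244).

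Apart from SLC7A8 and SLC38A10, the members called lower against the L.O. libraries were at low levels. SLC6A12, which carries betaine and GABA, had 1.17, 0.705 and 0.91 scaled CPM in the capsule libraries, against 4.75, 6 and 9.81 in the L.O. libraries, a log2 fold change of -2.88 ± 0.30 (adjusted p = 2.90e-07). SLC1A2, a glutamate carrier of astrocytes, had 9, 16 and 7 counts in the capsule libraries, against 39, 34 and 24 in the L.O. libraries, a log2 fold change of -1.23 ± 0.34 (adjusted p = 0.00508). SLC6A16, an orphan of the family, fell by 1.04 ± 0.17 on the log2 scale, SLC6A17, a carrier of synaptic vesicles, by 0.74 ± 0.12 and SLC43A2, a sodium-independent carrier of large neutral amino acids, by 0.67 ± 0.18. SLC6A13, a GABA carrier with 12 to 25 counts a capsule library, fell by 0.70 ± 0.27 (adjusted p = 0.0384). It lost the call without capsule replicate 1 or 2, or without L.O.2 or L.O.3, at adjusted p values from 0.0507 to 0.193, and under DESeq2 (adjusted p = 0.101). The carriers of creatine (SLC6A8) and taurine (SLC6A6) were not called, with log2 fold changes of -0.02 ± 0.069 and -0.00 ± 0.083.

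**Figure D3:**
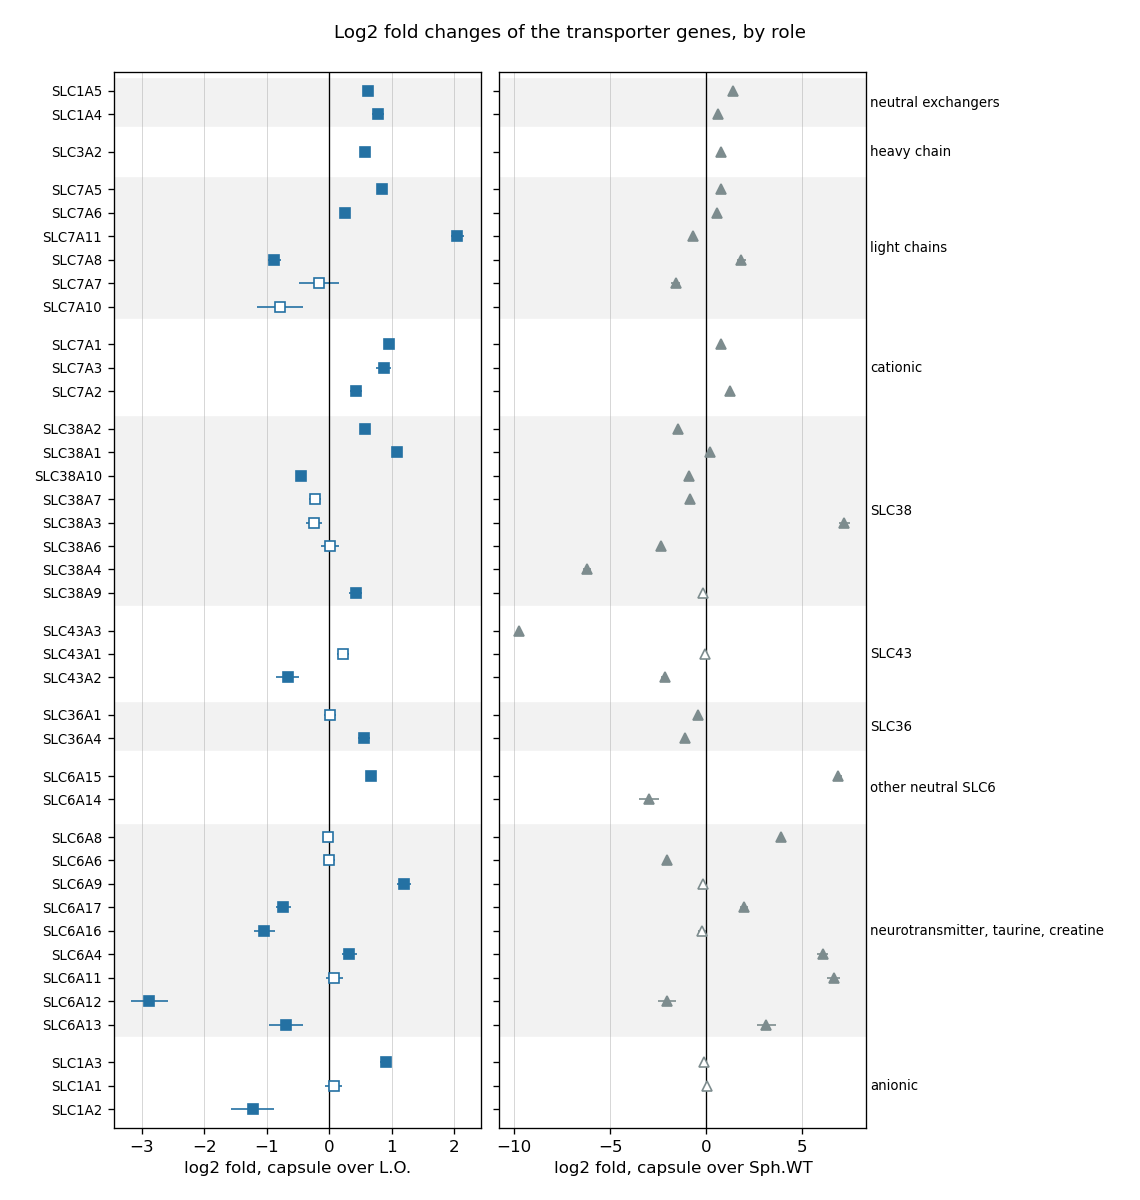
Log2 fold changes of members tested, capsule over L.O. on the left and capsule over Sph.WT on the right, with bars of 1 SE and filled symbols for edgeR adjusted p under 0.05. SLC7A3, at 0 counts in every Sph.WT library, is left out on the right. Folds over L.O. run from -2.88 to 2.05, and those over Sph.WT from -9.77 to 7.18, on separate axes.

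Set against the Sph.WT libraries, whose markers differed as given above, the capsule libraries differed in 32 of 38 members tested, 18 higher and 14 lower. The shares of members tested were 47.4% higher, against 43.2% of all genes, and 36.8% lower, against 42.9% of all genes, both near the background. At 2-fold or more 12 members were higher (26.3% of all genes) and 10 lower (25.4% of all genes). The groups did not overlap for 33 of the 38, against 86.7% of all genes. With no scaling the median of all genes moved to 0.29, with 19 members higher and 13 lower.

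The pair SLC3A2 and SLC7A5 was higher in the capsule libraries here too, with log2 fold changes of 0.77 ± 0.079 (adjusted p = 2.09e-08) and 0.76 ± 0.068 (adjusted p = 2.93e-09). SLC1A5 had a log2 fold change of 1.39 ± 0.069 over the Sph.WT libraries and SLC1A4 of 0.59 ± 0.1. SLC7A11 lay on the other side. Its 88.6, 91.5 and 102 scaled CPM in the Sph.WT libraries stood above all 3 capsule values, and the log2 fold change of capsule over Sph.WT was -0.68 ± 0.087 (adjusted p = 5.20e-07). Over the 6 spheroid libraries together it was 0.08 ± 0.78, and the capsule values lay between the 2 sets. SLC7A8 was higher in the capsule libraries than in the Sph.WT libraries, which had 8.97, 5.67 and 2.41 scaled CPM, a log2 fold change of 1.81 ± 0.24. SLC7A7, a light chain for cationic amino acids, was lower at -1.60 ± 0.22. The cationic carriers SLC7A1 and SLC7A2 were higher, at 0.75 ± 0.066 and 1.24 ± 0.11.

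**Figure D4:**
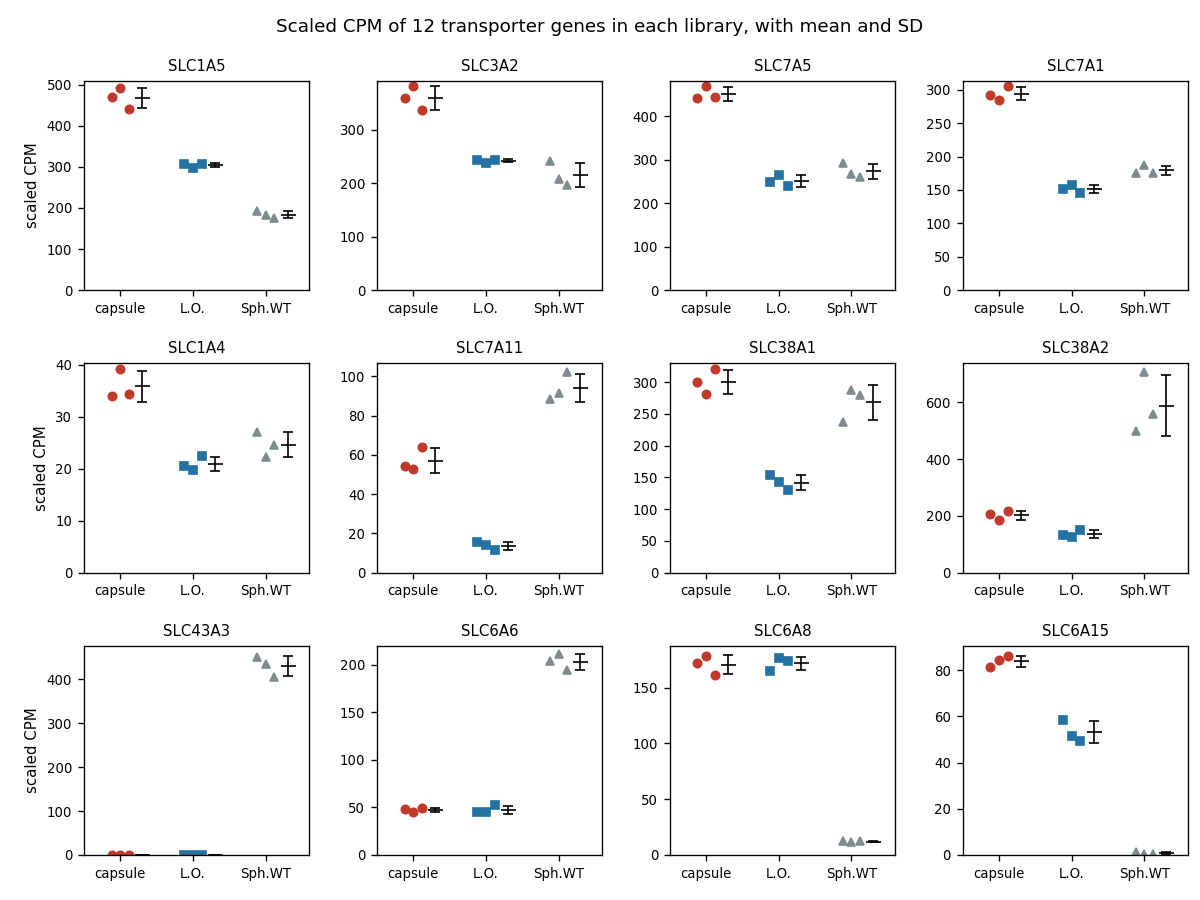
Scaled CPM of 12 members in each of the 9 libraries on axes that start at 0, with capsule, L.O. and Sph.WT libraries from left to right and bars for the mean and SD of each set. SLC7A11 averages 57 in the capsule libraries, 13.7 in the L.O. libraries and 94.2 in the Sph.WT libraries, and SLC6A8 and SLC6A6 separate the Sph.WT libraries from the other 6 in opposite directions.

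Among the SLC38 carriers, SLC38A2 had 498, 708 and 558 scaled CPM in the Sph.WT libraries, and the capsule libraries were lower by a log2 fold change of -1.50 ± 0.10 (adjusted p = 3.39e-11). SLC38A1 had 237, 287 and 280 scaled CPM in the Sph.WT libraries, which overlapped the capsule values. Its call at 0.20 ± 0.078 was lost without capsule replicate 1 or 3 or without Sph.WT.1, at adjusted p values from 0.0864 to 0.181. The ratio of SLC38A2 to SLC38A1 per kb was 1.02 ± 0.0218 in the capsule libraries, 1.47 ± 0.244 in the L.O. libraries and 3.32 ± 0.374 in the Sph.WT libraries. SLC38A4, a neutral amino acid carrier known from liver and placenta, had 0.44, 0.564 and 0.35 scaled CPM in the capsule libraries, 0.503, 0.756 and 0.502 in the L.O. libraries and 29.5, 38.6 and 35.2 in the Sph.WT libraries. Its log2 fold change of capsule over Sph.WT was -6.20 ± 0.20 (adjusted p = 5.36e-16). SLC38A3, a glutamine carrier of liver, kidney and brain, went the other way with 11.7, 13.4 and 14.4 scaled CPM in the capsule libraries and 12.5, 18.5 and 16 in the L.O. libraries, against 0.0598, 0.11 and 0.0709 in the Sph.WT libraries, or 1 to 3 counts each. SLC38A6 had a log2 fold change of capsule over Sph.WT of -2.36 ± 0.11, SLC38A10 of -0.93 ± 0.078 and SLC38A7, a lysosomal glutamine carrier, of -0.87 ± 0.10.

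SLC43A3, the nucleobase carrier, had 0.587, 0.564 and 0.28 scaled CPM in the capsule libraries and 0.168, 0.378 and 0.279 in the L.O. libraries, against 451, 435 and 406 in the Sph.WT libraries. Its log2 fold change of capsule over Sph.WT was -9.77 ± 0.14 (adjusted p = 7.65e-21). Its relative SLC43A1, a carrier of leucine and other large neutral amino acids, had 22.1, 22.7 and 19.7 scaled CPM in the capsule libraries and 23.5, 23.1 and 23.9 in the Sph.WT libraries, and was not called at -0.09 ± 0.098. SLC43A2 was lower at -2.17 ± 0.19. SLC36A1, a proton-coupled carrier of lysosomes, and SLC36A4 were both lower, by log2 fold changes of -0.46 ± 0.098 and -1.14 ± 0.10, and SLC36A1 lost its call with no scaling (-0.18, adjusted p = 0.0868).

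Of the 12 members higher at 2-fold or more over the Sph.WT libraries, 7 were SLC6 carriers. The creatine carrier SLC6A8 had 172, 178 and 161 scaled CPM in the capsule libraries and 165, 176 and 174 in the L.O. libraries, against 12.2, 11.3 and 12.5 in the Sph.WT libraries. Its log2 fold change was 3.87 ± 0.086 (adjusted p = 2.08e-18). The taurine carrier SLC6A6 was lower at -2.06 ± 0.074 (adjusted p = 2.11e-15), with 48.1, 45.5 and 49.1 scaled CPM in the capsule libraries, against 204, 211 and 194 in the Sph.WT libraries. The ratio of SLC6A6 to SLC6A8 per kb was 0.187 ± 0.0166 in the capsule libraries, 0.184 ± 0.0154 in the L.O. libraries and 11.3 ± 1.04 in the Sph.WT libraries. SLC6A15 had 1.26, 0.442 and 0.638 scaled CPM in the Sph.WT libraries, for a log2 fold change of 6.87 ± 0.17. SLC6A4 at 6.05 ± 0.27, SLC6A11 (a GABA carrier) at 6.64 ± 0.34 and SLC6A13 at 3.11 ± 0.50 were also higher in the capsule libraries, against Sph.WT libraries with at most 6 counts each. For the cationic carrier SLC7A3 the level was at least 376-fold higher than the limit of 3 counts over the Sph.WT libraries. SLC6A14, a broad carrier of neutral and cationic amino acids, was lower at -2.99 ± 0.54, with 0 to 5 counts a capsule library, against 14 to 50 counts a Sph.WT library. SLC6A12 was lower at -2.04 ± 0.48, against Sph.WT values of 1.91, 7.25 and 1.7 scaled CPM, of which Sph.WT.2 stood apart. The glutamate and aspartate carrier SLC1A1 was called in none of the 4 comparisons, with 7.92, 6.7 and 8.4 scaled CPM in the capsule libraries, 6.66, 7.35 and 7.92 in the L.O. libraries and 7.18, 7.4 and 8.29 in the Sph.WT libraries.

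The 2 spheroid sets were also compared with each other. Of 41 members tested, 17 were higher in the L.O. than in the Sph.WT libraries and 19 lower, 41.5% and 46.3% of those tested, against 43.1% and 42.2% of all genes. At 2-fold or more 11 were higher (27.4% of all genes) and 12 lower (24.5% of all genes). With no scaling, which moved the median of all genes to 0.43, the split was 21 higher and 14 lower. The sets did not overlap for 34 members, against 86.1% of all genes. SLC7A11 was lower in the L.O. libraries at -2.73 ± 0.11 (adjusted p = 8.16e-14) and SLC38A2 at -2.07 ± 0.11 (adjusted p = 3.96e-12). SLC38A1 and the glutamate carrier SLC1A3 were lower too, at -0.87 ± 0.086 and -1.03 ± 0.10. The largest called log2 fold changes of members detected in both sets were those of SLC43A3 at -10.53 ± 0.15, SLC38A3 at 7.45 ± 0.31, SLC6A11 at 6.59 ± 0.34, SLC6A15 at 6.22 ± 0.19, SLC38A4 at -5.81 ± 0.19 and SLC6A4 at 5.74 ± 0.28. SLC6A8 had 3.90 ± 0.091 and SLC6A13 had 3.83 ± 0.43. SLC7A3 was at least 206-fold higher in the L.O. libraries. SLC7A5 was not called (-0.07 ± 0.078, adjusted p = 0.379), and SLC7A1 was lower at -0.20 ± 0.073, but with no scaling both turned to 0.34 and 0.22. SLC7A1 and SLC43A1 (-0.30 ± 0.10, turning to 0.12 with no scaling) also lost their calls under DESeq2.

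Some of these counts cannot be tied to 1 gene with certainty, because members share exon bases with other genes or have near-identical copies. The strand setting of the counting, which bears on overlaps between opposite strands, was not given. SLC7A6 shares 44.4% of its exon bases with SLC7A6OS on the opposite strand, and SLC1A5 shares 23.4% with an antisense transcript. SLC43A3 shares 29.9% with a coding transcript on the same strand. SLC7A11 shares 8.97% with SLC7A11-AS1, which had 2 to 17 counts a library. SLC7A5 has the near-identical copies SLC7A5P1 and SLC7A5P2, with at most 148 and 296 counts a library, and SLC6A8 has SLC6A10P with at most 14. Values of these members are uncertain to that extent.

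Enzymes that make or use amino acids, transporters of other families and regulators of transporter genes were measured beside the members. In the capsule libraries against all 6 spheroid libraries, where 2.3% of all genes were called higher and 1.47% lower, 4 of 13 serine and glycine enzymes were higher and none lower, with a median log2 fold change of 0.75. PSAT1, an aminotransferase of serine synthesis, had a log2 fold change of 1.89 ± 0.22 (adjusted p = 0.014), and MTHFD1L and SHMT2, mitochondrial enzymes of the folate pathway, had 1.19 ± 0.15 and 0.75 ± 0.12. Of 13 glutamine, glutamate, aspartate and asparagine enzymes 1 was higher, ASNS, which makes asparagine, at 2.33 ± 0.34 (adjusted p = 0.0166). ASNS had 298, 293 and 310 scaled CPM in the capsule libraries, against 90.8, 82.2 and 74.9 in the L.O. libraries and 35.6, 37.2 and 37.6 in the Sph.WT libraries. GGCT of glutathione breakdown (0.85 ± 0.16) was the 1 of 12 cysteine and glutathione enzymes called, and ALDH18A1 of proline synthesis (0.71 ± 0.16) the 1 of 11 arginine, ornithine and proline enzymes, both higher. None of 8 branched-chain enzymes and none of 14 regulators was called. Of 20 amino acid carriers of other families, the mitochondrial carriers SLC25A15 and SLC25A29 were called, at 0.53 ± 0.11 and -0.80 ± 0.1. Of 20 amino acid sensing genes CASTOR1, an arginine sensor, was lower at -1.15 ± 0.18. Median log2 fold changes were 0.46 for the glutamine group, 0.60 for the arginine group, -0.42 for the cysteine group, -0.16 for the branched-chain enzymes, -0.65 for the regulators, -0.18 for the other carriers and 0.04 for the sensing genes, against -0.06 for all genes.

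Against the L.O. libraries alone the same lists held more calls, as did all genes, of which 24.7% were called higher and 25.4% lower. Of 13 serine and glycine enzymes 9 were higher and 1 lower, with a median log2 fold change of 0.63, and of 13 glutamine, glutamate, aspartate and asparagine enzymes 8 were higher and none lower, with a median of 0.32. ASNS had a log2 fold change of 1.86 ± 0.077 and PSAT1 of 1.57 ± 0.071. MTHFD2, another mitochondrial folate enzyme, had 345, 327 and 354 scaled CPM in the capsule libraries, against 151, 145 and 127 in the L.O. libraries, a log2 fold change of 1.27 ± 0.075 (adjusted p = 3.39e-10). Of 12 cysteine and glutathione enzymes 7 were higher and 2 lower. CTH, which makes cysteine, rose to 49.2, 55.9 and 56.4 scaled CPM in the capsule libraries, against 15.8, 15.2 and 12.3 in the L.O. libraries, a log2 fold change of 1.90 ± 0.1 (adjusted p = 7.23e-11), and CHAC1, which degrades glutathione, had 1.86 ± 0.1. The arginine, ornithine and proline enzymes had 6 of 11 higher and 1 lower, led by PYCR1 of proline synthesis at 0.68 ± 0.078. The branched-chain enzymes had 2 of 8 higher and 1 lower, with BCAT1 at 1.31 ± 0.097. Carriers of other families had 4 of 19 higher and 5 lower, and amino acid sensing genes 6 of 20 higher and 5 lower, in both lists near the shares of all genes. Median log2 fold changes were 0.32 for the cysteine group, 0.18 for the arginine group, 0.05 for the branched-chain enzymes, 0.02 for the other carriers and -0.01 for the sensing genes, against -0.01 for all genes.

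Of 14 regulators 4 were higher in the capsule than in the L.O. libraries and 5 lower, with a median log2 fold change of 0.11, beside 24.7% and 25.4% of all genes. ATF4 had 962, 975 and 942 scaled CPM in the capsule libraries, against 555, 531 and 552 in the L.O. libraries and 194, 195 and 188 in the Sph.WT libraries. Its log2 fold change was 0.81 ± 0.067 over the L.O. libraries (adjusted p = 2.48e-08) and 2.35 over the Sph.WT libraries (adjusted p = 4.14e-17), and it was not called over all 6 at 1.38 (adjusted p = 0.112). MYC had 144, 172 and 153 scaled CPM in the capsule libraries, against 85, 85.2 and 80.9 in the L.O. libraries, a log2 fold change of 0.90 ± 0.076 (adjusted p = 3.35e-08). NFE2L2, the transcription factor of the antioxidant response, had 47.3, 38.7 and 41.8 scaled CPM in the capsule libraries, 34.4, 32.9 and 33.7 in the L.O. libraries and 165, 182 and 167 in the Sph.WT libraries. Against the Sph.WT libraries 5 of 12 cysteine and glutathione enzymes were higher in the capsule libraries and 7 lower, beside 43.2% and 42.9% of all genes. The lower ones included TXNRD1, a thioredoxin reductase, with 142, 134 and 150 scaled CPM in the capsule libraries, against 1788, 2005 and 1954 in the Sph.WT libraries. Among the higher ones was CBS, with 270, 288 and 249 scaled CPM in the capsule libraries, against 1.14, 0.478 and 0.709 in the Sph.WT libraries.

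**Figure D5:**
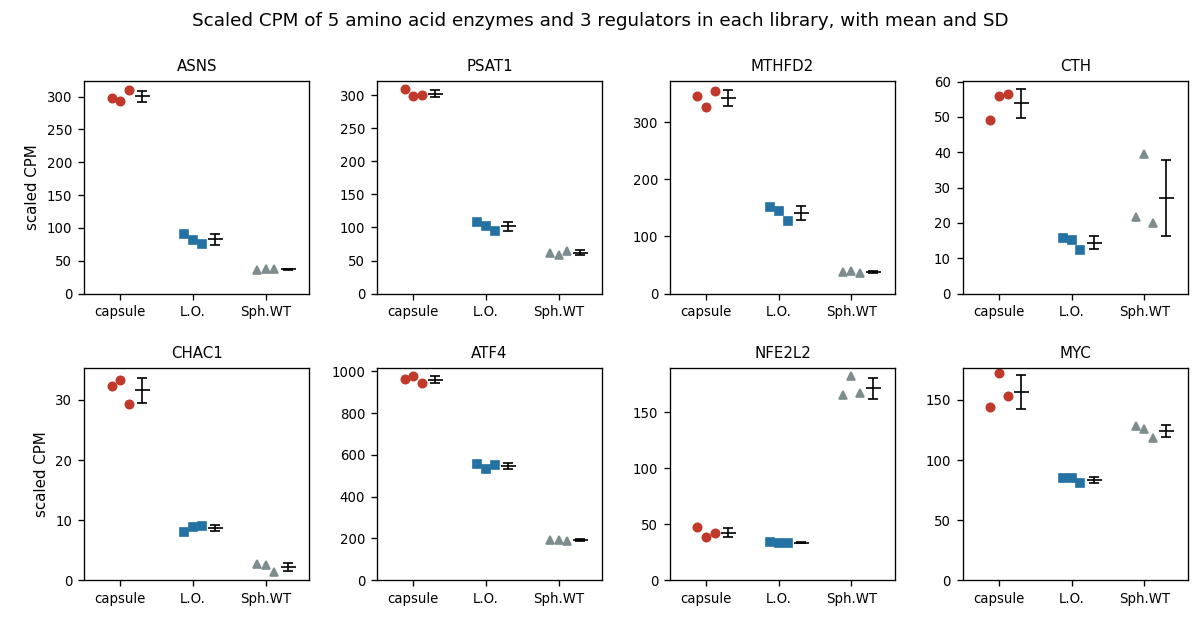
Scaled CPM of 5 enzymes of amino acid metabolism and 3 transcription factors in each of the 9 libraries, with the mean and SD of each set beside its points and axes that start at 0. ASNS, PSAT1, MTHFD2, CTH, CHAC1, ATF4 and MYC are highest in the capsule libraries, and NFE2L2 is highest in the Sph.WT libraries at 165 to 182.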

How the data were processed

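The authors deposited raw read counts per gene, with 17911 Entrez IDs as rows and 9 libraries as columns, not normalized. The submitters' processing notes name build hg38 and, without roles or versions, featureCounts and limma. Aligner, annotation and strand setting are not given in the sources used here. Columns were matched to groups by name. Spheroid columns could be matched to the group and to no single sample.

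Members were chosen by symbol. The members, gene lists and tests were chosen with earlier results of these data known. Fits used edgeR 4.0.16 (R 4.3.3, glmQLFit and glmQLFTest) on all genes with TMM scaling and filterByExpr, Benjamini-Hochberg adjustment and a threshold of 0.05, separately for each comparison. A standard error is the absolute log2 fold change divided by the square root of F. Scaled CPM used the TMM factors of all 9 columns, and exon lengths came from GENCODE 29. Floors of 3 counts cover counting error only. The fits were tested on counts simulated from the capsule libraries, with spheroid libraries that were all alike. That setting lacks the difference between the L.O. and Sph.WT libraries, so it does not cover the pooled spheroid group. Replicate libraries of a set differed in at least 1203 genes each, beyond counting noise, so none was a duplicate. Alternatives were RLE scaling, no scaling, no filter, DESeq2 1.42.0, limma-voom 3.58.1, each library left out, and each spheroid set alone. Named were members called at 2-fold over all spheroids, the 10 highest per kb, the 10 largest differences between the spheroid sets, SLC3A2, SLC7A5, SLC7A11, SLC1A5, SLC38A2, SLC7A1 and SLC38A9, and up to 3 called genes of each list in each direction. The other members and genes were named after their values were seen. The tests against each spheroid set alone are alternatives of the comparison with all spheroids, given as comparisons of their own after the values were seen. Of the members, 1 is counted in the totals and not reported here.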

Additional observations from a re-analysis of the deposited data

How the results depend on the processing

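The counts for capsule over all 6 spheroid libraries depended most on the processing. With TMM scaling and edgeR 639 genes were called, against 359 with no scaling, 4025 by DESeq2, 7970 with only the L.O. columns and 13909 with only the Sph.WT columns, and 0 to 604 when 1 library was left out. Against 4 members called, 12 were called by DESeq2 (6 lower), 25 with only the L.O. columns (17 higher, 8 lower) and 32 with only the Sph.WT columns (18 higher, 14 lower), with 0 to 3 when 1 library was left out, all higher. At 2-fold or more these gave 4, 6 and 22 members, against 0. With no scaling 1 member was lower. SLC38A2 (-0.84) turned to 0.57 and SLC6A13 (0.21) to -0.70 with only the L.O. columns, and SLC7A11 (0.08) to -0.68 with only the Sph.WT columns, each a fit with fewer samples. In L.O. over Sph.WT, SLC7A1 turned to 0.22 and SLC7A5 to 0.34 with no scaling. The cause of the differences between tools and scalings was not tested. In the other 3 comparisons the total of genes called in both directions and the counts of members called stayed within 1.5 times their main values under RLE scaling, no scaling, no filter, DESeq2, limma-voom and each library left out. By direction, the genes higher in capsule over L.O. numbered 2275 with no scaling, against 3934. No paired analysis was possible because the spheroid columns could be matched to the group and to no single sample, so their numbers pair no samples. Members with few counts, such as SLC38A5, SLC6A20 and SLC7A4 at 1 to 23 counts a library, are limited by depth.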
